A study of Mus musculus with 9 samples.

Results

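The Ikaros and Runx transcription factors, 6 of the 18193 genes named on the array, were followed through 17 of its 45101 probe sets. These were chosen by gene symbol, as all probe sets that the platform annotation assigns to Ikzf1, Ikzf2, Ikzf3, Runx1, Runx2, Runx3 or Cbfb. No probe set was kept or dropped by its value, but the genes were chosen with earlier results of these data known. Ikzf1 had 2 probe sets, Ikzf2 had 3, Ikzf3 had 3, Runx1 had 6, Runx3 had 2 and Cbfb had 1, so 6 of the 7 genes were measured. Runx2 is not analysed here, because no probe set carries its symbol in the annotation used. Probe sets of one gene share their transcript and are not independent measurements.

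The cells were LSK cells, the Lineage-, Sca-1+, c-Kit+ bone marrow fraction that holds hematopoietic stem and early progenitor cells, purified from wild-type C57/Bl6 mice. They grew for 3 days on OP9 cells, a stromal line from mouse bone marrow. The non-adherent cells were then harvested for RNA. One group grew on OP9-DL1, a feeder carrying the Notch ligand Delta-like 1, and received Compound E at 1 µM, which inhibits γ-secretase and so the cleavage that activates Notch receptors. The second grew on OP9-DL1 without the inhibitor, and the third on OP9-GFP, the feeder without the ligand. Each group had 3 arrays, and the labels do not say whether these were separate animals or cultures, so every p-value reflects just the spread among these arrays, possibly a technical one. All 3 groups share the OP9 layer and the culture time.

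The Ikaros family are zinc finger proteins that bind DNA as dimers and recruit chromatin complexes, mostly the NuRD repressor complex. Ikzf1 encodes Ikaros, needed for lymphoid development, Ikzf2 encodes Helios, found in early progenitors and T lineage cells, and Ikzf3 encodes Aiolos, which acts in later B and other lymphoid cells. Runx proteins bind DNA through the Runt domain together with the partner CBFβ, encoded by Cbfb, which does not touch DNA but raises the affinity of Runx for it. Runx1 is needed for blood stem cell formation and for megakaryocyte and lymphoid maturation, and Runx3 acts in T cells and other lymphocytes. Ikaros recognises a core that overlaps TGGGAA, the core bound by RBPJ, the DNA-binding partner of activated Notch.

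Runx genes start from a distal and a proximal promoter. The distal starts of Runx1 and Runx3 and the Runx2 window share a sequence that is shown here because it is the site the Runx proteins themselves bind. RefSeq windows of 250 bases before to 50 after a start were at hand for 5 of the 7 genes, 8 windows in all (build GRCm38.p6). Stretches of 30 bases from 3 of them follow, 5′ to 3′ on the gene's strand, with the Runx core in capitals (ACCACA, which is TGTGGT read on the other strand).
Runx1, distal start, chr16:92826025-92826054, minus strand: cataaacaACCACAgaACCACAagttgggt
Runx2, chr17:44814583-44814612, minus strand: cacaaacaACCACAgaACCACAagtgcggt
Runx3, distal start, chr4:135120503-135120532, plus strand: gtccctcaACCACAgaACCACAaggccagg
The stretches share a run of 18 bases, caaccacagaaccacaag, which holds 2 Runx cores. The run begins in transcribed sequence in Runx1 and Runx2, whose stretches start 21 and 16 bases after the annotated start, and before the distal start in Runx3, whose stretch begins at -142. Of 32851 mouse windows of the same length, 4 hold this run on either strand, those of Runx1, Runx2, Runx3 and Gm16225, a gene on chromosome 4. The Runx2 window holds a further single core at -80. A single TGTGGT on either strand is common by comparison, present in 16.8% of windows, and 2 or more in 1.81%. No TGTGGT was found in the proximal windows of Runx1 and Runx3, in both windows of Ikzf1 or in that of Cbfb. The distal Runx3 window was also the only one of the 8 with TGGGAA (it begins at -154 and the first Runx core at -134), and 25.6% of all windows hold that core on either strand. It is shown with the Runx cores, all in capitals, at chr4:135120479-135120538, plus strand.
Runx3, distal start: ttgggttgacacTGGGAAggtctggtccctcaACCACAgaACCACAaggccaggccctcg
These matches describe the letters of the reference and no binding was measured.

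Values are log2 expression as the authors deposited it, and array medians lay between 4.78 and 4.94. Control probe sets against bacterial genes, used here to set the background, ran from 2.24 to 3.64, and group means up to 3.64 are called background here. A change counted as called at a limma adjusted p below 0.05 over all 45037 probe sets that are no array controls. Log2 differences had a median standard error of 0.11. Of the 17 probe sets 14 were above background in at least 1 group and 3 were at background throughout, and 5 held equal values on 2 or more arrays of a group, which lowers the spread behind their p. Hematopoietic markers were bright, with Ptprc, the pan-leukocyte CD45 gene, at 11.59 with Compound E, 11.38 on OP9-DL1 and 11.53 on OP9-GFP. Of 14 stromal markers 12 were above background in every group, the brightest being the chemokine gene Cxcl12 at 12.08, 12.56 and 12.21 in the same order of groups, while Lum and Dcn were at background, and the part of feeder RNA in these signals was not tested. Ly6a, which encodes Sca-1, is not analysed here.

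**Figure D1:**
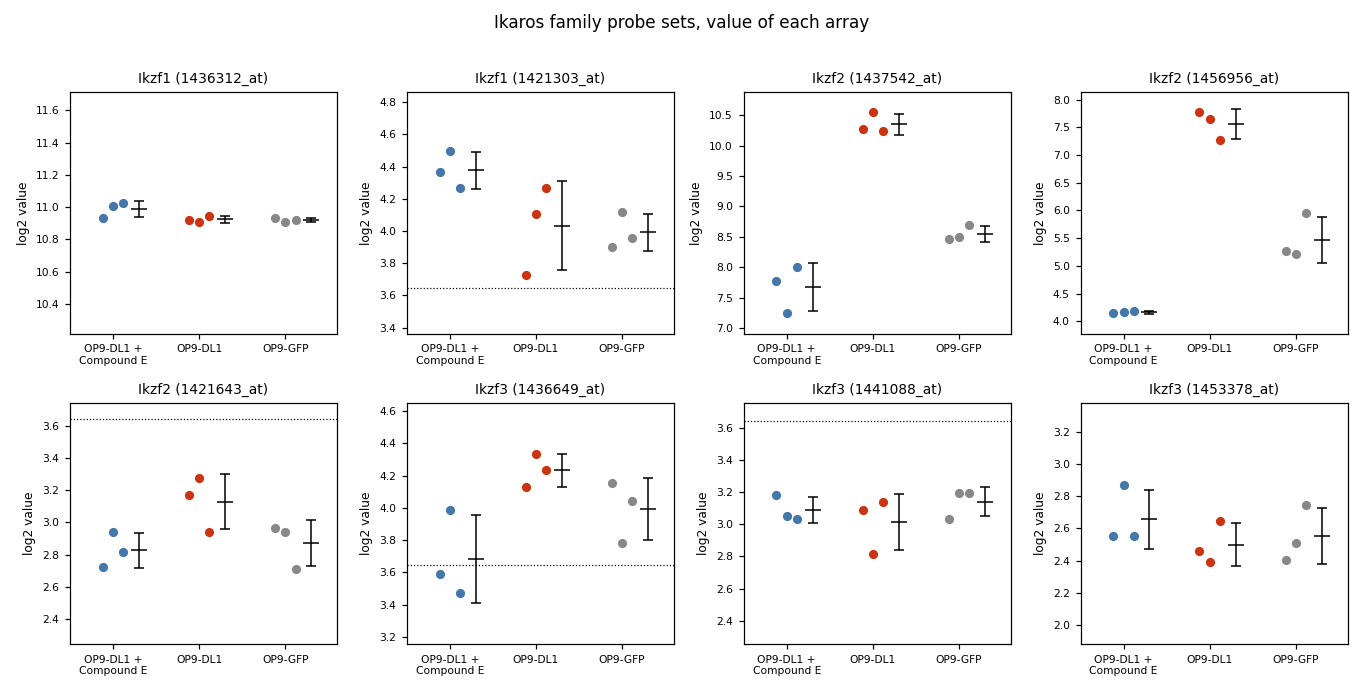
Log2 values of the 8 Ikaros family probe sets, 1 panel each with its own axis. Points are single arrays of OP9-DL1 with Compound E (blue), OP9-DL1 (red) and OP9-GFP (grey), bars are the mean and SD of 3 arrays, and the dotted line is the highest background control, 3.64. In the 2 brighter Ikzf2 panels the OP9-DL1 arrays lie above all others and the Compound E arrays below, and the bright Ikzf1 panel is nearly level.

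The effect of the ligand was read from OP9-DL1 against OP9-GFP. Ikzf2 rose 3.49-fold and 4.26-fold by its brighter probe sets, Runx3 1.90-fold and Runx1 by up to 0.59 on the log2 scale, while Ikzf1, Ikzf3 and Cbfb did not pass the test. In all 6 of 17 probe sets were higher and 0 lower by limma, and at an unadjusted p below 0.05 the counts were 7 and 0. Over all probe sets 24.9% were called, 12.1% higher and 12.8% lower. The 6 higher probe sets belong to 3 genes. In bulk RNA, fewer cells of a type and less RNA per cell cannot be told apart. The median log2 change of the 17 was 0.04, against -0.02 over all probe sets. The groups did not overlap for 6 of the 17, against 37.2% of all probe sets.

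Compound E on OP9-DL1 was then set against OP9-DL1 alone, which asks what the inhibitor changed in the presence of the ligand. The same 6 probe sets of Ikzf2, Runx1 and Runx3 were all lower with Compound E, and so were 1 dim probe set of Ikzf3 and the Ikzf2 probe set at background. That made 8 of 17 lower and 0 higher by limma (8 and 1 at an unadjusted p below 0.05), against 39.1% of all probe sets called, 20.0% lower and 19.1% higher. The median log2 change was -0.06 over the 17 and 0.06 over all probe sets, and the groups did not overlap for 7 of 17, against 47.0% of all. Both comparisons use the same OP9-DL1 arrays, so a probe set that is high on those arrays moves in opposite directions in the pair by construction. Array medians differed by -0.13 between Compound E and OP9-DL1. With each array centred on its median 7 probe sets were lower and 5 higher, where the 5 were both Ikzf1, 2 Runx1 and 1 Ikzf3 probe sets, and the 6 named above remained lower.

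Compound E on OP9-DL1 was also set against OP9-GFP, a comparison in which feeder and inhibitor differ together. No group received Compound E on OP9-GFP, so their effects cannot be told apart here. Ikzf2 was lower with Compound E than on the feeder without ligand, and no other gene passed the test. The counts were 2 lower and 0 higher of 17 by limma, and 2 and 2 at an unadjusted p below 0.05. Over all probe sets 19.0% were called, 10.8% lower and 8.24% higher. The median log2 change was -0.04 over the 17 and 0.03 over all, and 4 of the 17 did not overlap, against 31.7% of all.

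**Figure D2:**
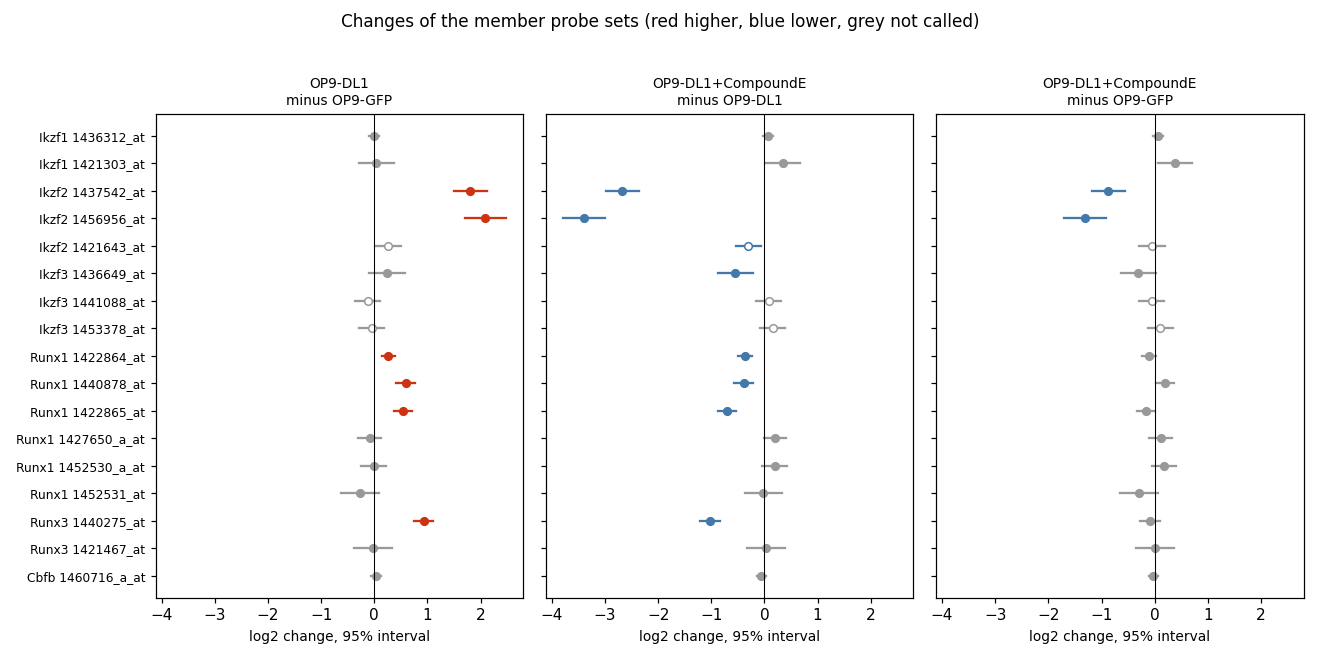
Log2 change of each of the 17 probe sets (rows) in the 3 comparisons (panels), with the 95% interval of the limma fit over 9 arrays. Red is higher, blue lower and grey not called, and open points were at background in both groups. Only the 2 brighter Ikzf2 probe sets are called in all 3 panels.

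Ikzf2, the Helios gene, moved most among these factors. Its brightest probe set, 1437542_at, read 7.77, 7.24 and 8.01 with Compound E, 10.27, 10.55 and 10.23 on OP9-DL1, and 8.46, 8.49 and 8.69 on OP9-GFP. The OP9-DL1 arrays were all highest and the Compound E arrays all lowest, and no 2 groups overlapped. The log2 change was 1.80 ± 0.15 (SE) for OP9-DL1 against OP9-GFP, with a limma adjusted p of 9.91e-08. For Compound E against OP9-DL1 it was -2.68 ± 0.15 (adjusted p = 5.59e-10), a 6.40-fold difference. Compound E also lay below OP9-GFP, by a log2 change of -0.87 ± 0.15 (adjusted p = 0.000558).

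The second Ikzf2 probe set, 1456956_at, showed the same order of groups. It read 4.14, 4.16 and 4.19 with Compound E, 7.78, 7.65 and 7.26 on OP9-DL1, and 5.26, 5.21 and 5.95 on OP9-GFP. Again no 2 groups overlapped. Here OP9-DL1 stood 4.26-fold above OP9-GFP, a log2 change of 2.09 ± 0.19 (SE, limma adjusted p = 2.75e-07). Compound E stood 10.6-fold below OP9-DL1 (log2 change -3.40 ± 0.19, adjusted p = 5.32e-10) and 2.48-fold below OP9-GFP (-1.31 ± 0.19, adjusted p = 0.000131). Ranked by absolute change over all 45037 probe sets, it was number 100 for Compound E against OP9-DL1 and number 349 for OP9-DL1 against OP9-GFP. On a log2(value + 32) scale, where dim probe sets change less, the differences were 1.53, -2.15 and -0.62, each still called.

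The third Ikzf2 probe set, 1421643_at, was at background in every group, between 2.71 and 3.28 over the 9 arrays. Its log2 change was -0.30 for Compound E against OP9-DL1, with an adjusted p of 0.0455 by limma and overlapping groups. That call was lost in 9 of 15 alternatives, among them 6 that left out 1 array. Without OP9-DL1 replicate 3 it was called higher on OP9-DL1 than on OP9-GFP, by 0.35 (adjusted p = 0.0479). As both group means lie within the background range, neither value is a measure of Ikzf2.

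Ikzf1, the Ikaros gene, was bright and nearly level. Probe set 1436312_at read 10.93, 11.01 and 11.02 with Compound E, 10.92, 10.91 and 10.95 on OP9-DL1, and 10.93, 10.91 and 10.92 on OP9-GFP. The groups overlapped. For OP9-DL1 against OP9-GFP the log2 change was 0.0024 with a 95% interval of -0.09 to 0.10, so a change as large as that of Runx3 lies outside the interval. For Compound E against OP9-DL1 it was 0.06 (interval -0.03 to 0.16, limma adjusted p = 0.269), and 0.20 with arrays centred on their medians (adjusted p = 0.00249). The dim Ikzf1 probe set, 1421303_at, had means of 4.38 ± 0.12 with Compound E, 4.03 ± 0.28 on OP9-DL1 and 3.99 ± 0.11 on OP9-GFP (SD, n = 3). Its change of 0.34 for Compound E against OP9-DL1 was not called (adjusted p = 0.0900), but was called without OP9-DL1 replicate 3 (0.46, adjusted p = 0.0420). With the probe sets of Ikzf1 averaged, Compound E stood 0.20 above OP9-DL1 (adjusted p = 0.0422) and 0.23 above OP9-GFP (adjusted p = 0.0494).

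Ikzf3, the Aiolos gene, was at the edge of detection. The brightest of its probe sets, 1436649_at, read 3.59, 3.99 and 3.47 with Compound E, 4.13, 4.34 and 4.23 on OP9-DL1, and 4.15, 3.78 and 4.04 on OP9-GFP. Compound E lay below OP9-DL1 on every array, and 2 of its arrays were at or below 3.64. The fall was -0.55 ± 0.16 (log2, SE) with a limma adjusted p of 0.0106. It was not called without Compound E replicate 3 (-0.44, adjusted p = 0.0501) or with the Ikzf3 probe sets averaged (-0.11, adjusted p = 0.381). OP9-DL1 against OP9-GFP gave 0.24 (adjusted p = 0.330). The other Ikzf3 probe sets, 1441088_at and 1453378_at, were at background in all groups.

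The family genes outside the list, Ikzf4 for Eos and Ikzf5 for Pegasus, were not called in any comparison by their brightest probe sets. Ikzf5 averaged 7.76 with Compound E, 8.03 on OP9-DL1 and 7.80 on OP9-GFP, and Ikzf4 averaged 3.95, 3.81 and 3.67 in the same order. Their adjusted p ran from 0.0884 to 0.844 by limma.

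**Figure D3:**
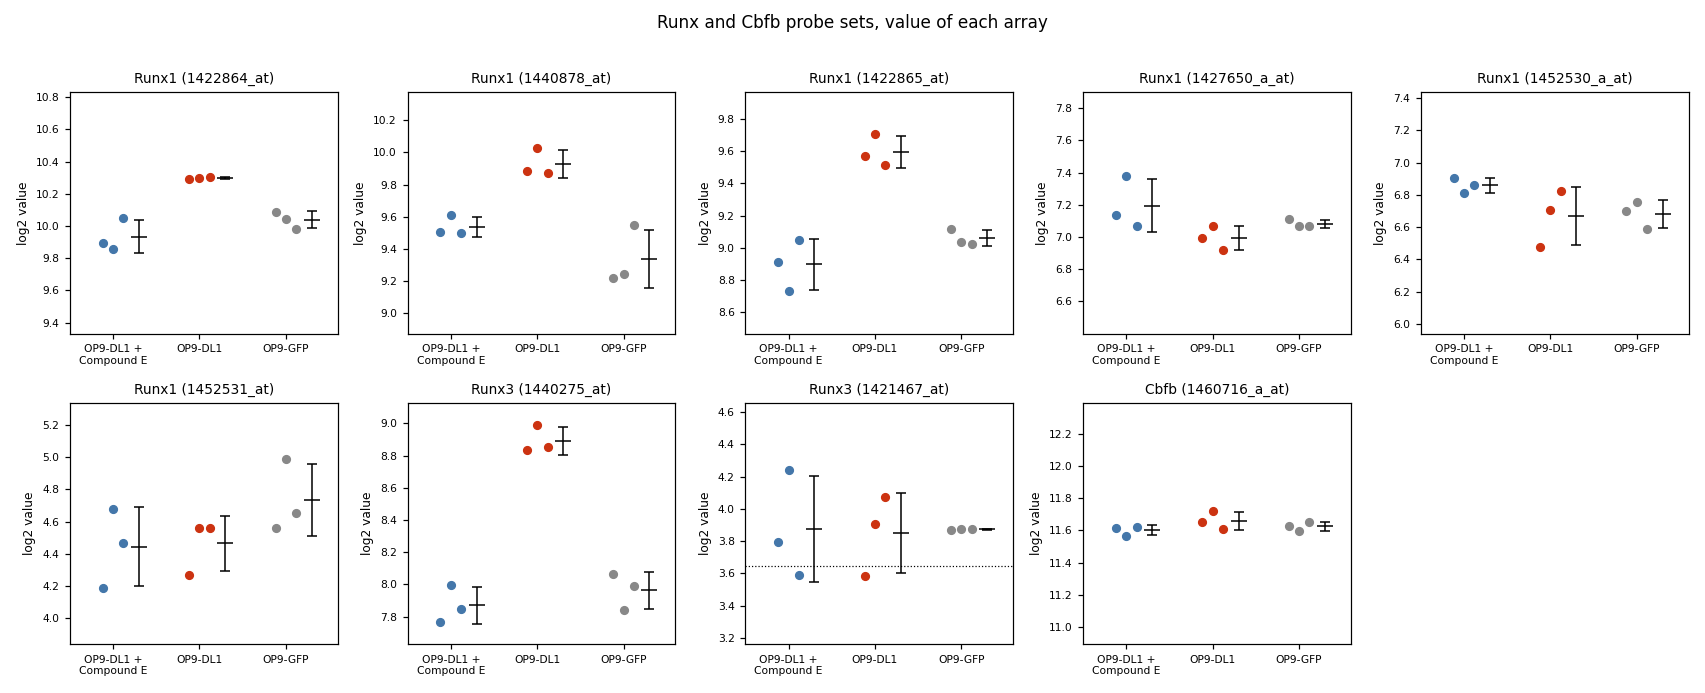
Log2 values of the 6 Runx1, 2 Runx3 and 1 Cbfb probe sets, 1 panel each with its own axis, with points, bars and dotted line as for the Ikaros family. In 3 Runx1 panels and 1 Runx3 panel all OP9-DL1 arrays lie above the other 6, and the Cbfb panel is level.

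Runx3 was higher on OP9-DL1 than in both other groups. Probe set 1440275_at read 7.77, 7.99 and 7.85 with Compound E, 8.83, 8.99 and 8.85 on OP9-DL1, and 8.06, 7.84 and 7.99 on OP9-GFP. The OP9-DL1 arrays did not overlap with any other, and the Compound E and OP9-GFP arrays lay among each other. The log2 change was 0.93 ± 0.09 (SE) for OP9-DL1 against OP9-GFP, with a limma adjusted p of 5.13e-07. For Compound E against OP9-DL1 it was -1.02 ± 0.09, with an adjusted p of 1.05e-07. Compound E and OP9-GFP differed by -0.09, with a 95% interval of -0.28 to 0.09 (adjusted p = 0.505). The other Runx3 probe set, 1421467_at, read 3.58 to 4.24 over the 9 arrays, close to background, with changes of -0.02 and 0.02 in the first and second comparison. Runx3 therefore rests on 1 probe set.

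Runx1 split by probe set. The brightest, 1422864_at, read 9.90, 9.86 and 10.05 with Compound E, 10.29, 10.30 and 10.30 on OP9-DL1, and 10.09, 10.05 and 9.98 on OP9-GFP. Every OP9-DL1 array was above the other 6, by a small margin. The changes were 0.26 ± 0.06 (log2, SE, limma adjusted p = 0.00308) for OP9-DL1 against OP9-GFP and -0.37 ± 0.06 (adjusted p = 0.000103) for Compound E against OP9-DL1.

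A pair of further Runx1 probe sets moved the same way and further. The probe set 1422865_at averaged 8.90 ± 0.16 with Compound E, 9.60 ± 0.10 on OP9-DL1 and 9.06 ± 0.05 on OP9-GFP (SD, n = 3). It was higher on OP9-DL1 than on OP9-GFP by 0.54 (limma adjusted p = 8.98e-05), and Compound E lay 0.70 below OP9-DL1 (log2 change -0.70, adjusted p = 3.35e-06). The probe set 1440878_at averaged 9.54 ± 0.06, 9.93 ± 0.09 and 9.34 ± 0.18 in the same order, with changes of 0.59 and -0.39 (adjusted p = 3.99e-05 and 0.00115).

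For Compound E against OP9-GFP these 3 Runx1 probe sets gave -0.10, -0.16 and 0.20, none called by limma. Alternatives called the last 2. Without Compound E replicate 3 the probe set 1422865_at was lower with Compound E (-0.24, adjusted p = 0.0468), and without OP9-GFP replicate 3 the probe set 1440878_at was higher (0.30, adjusted p = 0.00871), as it was over all 9 arrays centred on their medians (0.29, adjusted p = 0.0228).

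The remaining Runx1 probe sets were not called in any of the 3 comparisons. They were 1427650_a_at, with group means of 7.19, 6.99 and 7.08 with Compound E, on OP9-DL1 and on OP9-GFP, 1452530_a_at (6.86, 6.67 and 6.68) and 1452531_at (4.44, 4.46 and 4.73). For OP9-DL1 against OP9-GFP their log2 changes were -0.09, -0.01 and -0.27. The upper ends of the 95% intervals, 0.13, 0.22 and 0.08, lie below the changes of 0.54 and 0.59 of the probe sets that rose most. Which Runx1 transcripts each probe set detects was not tested.

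Cbfb, the partner that every Runx protein uses, was bright and level. It read 11.62, 11.57 and 11.62 with Compound E, 11.65, 11.72 and 11.61 on OP9-DL1, and 11.63, 11.60 and 11.65 on OP9-GFP. The 3 groups overlapped. The change was 0.03 for OP9-DL1 against OP9-GFP, with a 95% interval of -0.06 to 0.12, and -0.06 for Compound E against OP9-DL1 (interval -0.15 to 0.03, limma adjusted p = 0.301). An increase of the size seen in Runx3 lies outside these intervals. None of 17 alternatives called Cbfb in any comparison.

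Genes were compared with the members by the shape of their values over the 9 arrays, after each gene was centred on its own mean. The measure was the root mean square difference in log2 units, and with only 3 groups it reflects mainly the group means. Nearest to Ikzf2 were Gna14, a G protein α subunit gene (0.14), Dnajc6, the auxilin gene (0.17), and Pls1, which encodes an actin bundling protein (0.18). Gna14 averaged 3.99 with Compound E, 6.62 on OP9-DL1 and 4.65 on OP9-GFP. Nearest to Runx3 were Antxr1, the gene of an anthrax toxin receptor (0.07), Mmd (0.09) and Fam214a (0.09). Antxr1 averaged 9.84, 10.80 and 9.90 in the same order. Nearest to Ikzf3 were Sema4c, Gtpbp10 and Rangrf, at 0.10, 0.11 and 0.12. No other member had group means that spanned 0.5 by its brightest probe set.

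Genes whose products work with Runx proteins were read next. Of 16 measured partners and cofactors 7 rose and 0 fell on OP9-DL1 against OP9-GFP by limma (9 and 0 at an unadjusted p below 0.05), where 31.0% of all genes were called, 15.1% higher and 16.0% lower. The median log2 change of the list was 0.21, against -0.02 over all genes. With Compound E against OP9-DL1 10 fell and 1 rose, where 44.9% of genes were called, 21.0% lower and 23.8% higher, with a median of -0.46 against 0.08. Against OP9-GFP, Compound E had 6 lower and 1 higher, where 21.3% of genes were called, 1826 of 18193 lower and 2056 higher, with a median of -0.11 against 0.05. This list and the Ikaros complex, Runx target and Ikaros target lists below were written with earlier results of these data known. Their directions are not independent evidence.

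Runx1t1 rose furthest among the partners on OP9-DL1 against OP9-GFP, and Ets1 fell furthest with Compound E against OP9-DL1. Runx1t1 encodes the corepressor ETO and is joined to RUNX1 by a translocation in human leukemia. It averaged 5.30 with Compound E, 7.55 on OP9-DL1 and 5.08 on OP9-GFP, a rise of 2.47 ± 0.14 (log2, SE) and a fall of -2.25 ± 0.14 (limma adjusted p = 1.48e-09 and 2.85e-09). Of its 6 probe sets 4 were called in both comparisons, with rises between 0.82 and 2.47. Ets1, an ETS factor that binds DNA cooperatively with Runx1, averaged 7.21, 9.65 and 7.71 in the same order, with changes of 1.94 and -2.44. Erg, another ETS factor of stem cells and megakaryocytes, averaged 5.64, 7.18 and 6.28, with changes of 0.91 and -1.54. Its mean with Compound E was below that on OP9-GFP, by -0.64 (adjusted p = 0.00290). Tle3, a Groucho corepressor gene, was the 1 partner that rose with Compound E, by 0.26 (adjusted p = 0.00016).

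**Figure D4:**
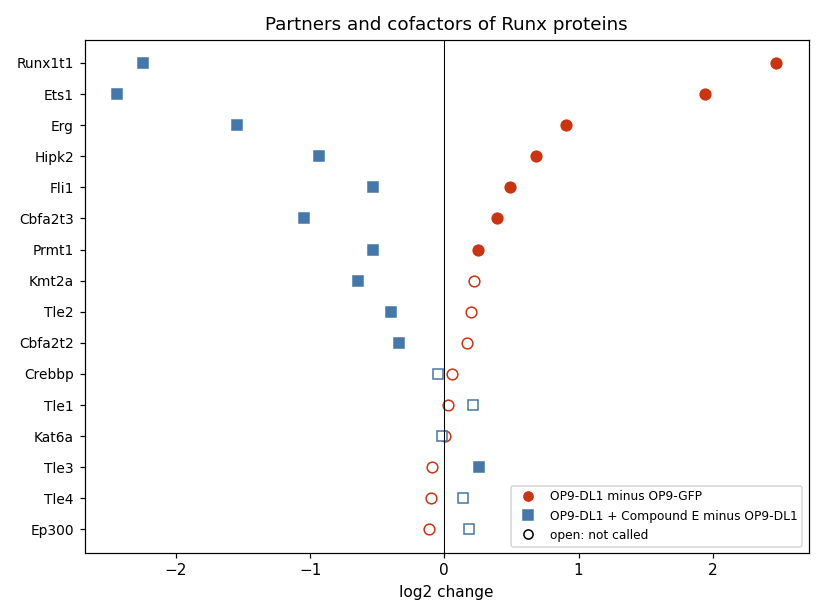
Log2 change of 16 genes of Runx partners and cofactors, for OP9-DL1 minus OP9-GFP (red circles) and OP9-DL1 with Compound E minus OP9-DL1 (blue squares), 1 probe set per gene. Filled symbols passed the test. Runx1t1, Ets1 and Erg lie furthest from 0 on both sides.

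Genes of the complexes that Ikaros proteins recruit, chiefly NuRD subunits and including Ikzf4 and Ikzf5, were read by their brightest probe sets. By these, called changes were at most 0.57 in size in the first 2 comparisons. On OP9-DL1 against OP9-GFP 3 of 19 rose and 1 fell by limma, with a median of 0.09, and both shares are close to or below those over all genes given above. The 3 were Mta3 (0.57) and Mta1 (0.30), NuRD subunit genes, and the histone deacetylase gene Hdac2 (0.37). Mbd2, a methyl-DNA binding subunit gene, fell by 0.18. With Compound E against OP9-DL1 9 fell and 1 rose, where 21.0% of all genes were lower and 23.8% higher, with a median of -0.15 against 0.08. Among them were Hdac2 (-0.51), Rbbp7 (-0.40) and Mta1 (-0.38), and Mbd2 was the one that rose (0.34). The second Mta1 probe set was not called in either comparison (-0.23 and 0.37), and of 3 Mta3 probe sets 2 were called in the first. With arrays centred on their medians the counts were 4 lower and 2 higher.

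Genes known to be regulated by Runx proteins went both ways. They belong to several cell lineages, and the part of cell type shares in these changes was not tested. On OP9-DL1 against OP9-GFP 7 of 19 measured targets rose and 5 fell by limma, where 15.1% of all genes were higher and 16.0% lower, with a median of 0.08 against -0.02 over all genes. The rises included Itga2b, the platelet integrin αIIb gene (1.82), Prkcq, the protein kinase C theta gene (1.74), and Mmp13, a collagenase gene of bone. The falls included Csf1r, the macrophage growth factor receptor gene (-1.06), Spi1, which encodes the myeloid factor PU.1 (-0.92), and Zbtb7b, the ThPOK gene (-0.65). With Compound E against OP9-DL1 8 fell and 5 rose, where 21.0% of all genes were lower and 23.8% higher, with a median of 0.02 against 0.08. The largest were Prkcq (-2.92), Itga2b (-2.56) and Mmp13 (-2.08) among the falls and Spi1 (1.38), Csf1r (1.29) and Zbtb7b (1.02) among the rises. Mmp13 averaged 3.64 with Compound E, 5.72 on OP9-DL1 and 4.22 on OP9-GFP, and the first of these is at background, so its change may be understated. With arrays centred on their medians 9 targets rose with Compound E.

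Genes known to be regulated by Ikaros likewise went both ways. This list and that of the Runx targets do not separate activated from repressed genes, so mixed directions do not speak to the factors' activity. The list holds genes that activated Notch also drives, so its counts do not bear on Ikaros alone. On OP9-DL1 against OP9-GFP 6 of 16 measured targets rose and 2 fell by limma, where 15.1% of all genes were higher and 16.0% lower, with a median of 0.21 against -0.02 over all genes. Rises were led by Notch3 (2.71) and Hes1 (2.12), which activated Notch also drives, and by Dntt, the terminal transferase gene (2.02). Flt3, the cytokine receptor gene of lymphoid-primed progenitors, fell by 1.51 and Il7r, the interleukin 7 receptor gene, by 1.14. With Compound E against OP9-DL1 6 fell and 3 rose, where 21.0% of all genes were lower and 23.8% higher, with a median of -0.09 against 0.08. Notch3 (-2.79), Hes1 (-2.08) and Myc (-1.86) led the falls, and Flt3 (1.05), Igll1, a surrogate light chain gene (0.76), and Cdkn1b, a cell cycle inhibitor gene (0.39), the rises. The second probe set of Igll1 (-0.04, adjusted p = 0.853) and that of Cdkn1b (-0.10, adjusted p = 0.331) were not called, so each of these rises rests on 1 of 2 probe sets. Il7r did not change with Compound E by the test (0.08, adjusted p = 0.752) and remained below OP9-GFP (-1.06, adjusted p = 0.000568). Dntt fell with Compound E against OP9-DL1 (-0.68) but remained above OP9-GFP (1.34, limma adjusted p = 8.23e-08). Notch3 (-0.08) and Hes1 (0.04) with Compound E did not differ from OP9-GFP by the test. Rag1, Rag2, Cd79a and Ptcra were at background in every group.

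Markers of several cell types moved with these genes. Some genes are in both a marker list and a target list, so the lists are not independent. They are Itga2b and Pf4 (megakaryocyte), Csf1r (macrophage), Ibsp (osteoblast), Flt3 (LSK) and Cd79a (B cell). The marker counts stand beside shares over all genes of 15.1% higher and 16.0% lower on OP9-DL1 against OP9-GFP. For Compound E against OP9-DL1 the shares were 23.8% higher and 21.0% lower. All 8 measured megakaryocyte markers were higher on OP9-DL1 than on OP9-GFP and all 8 lower with Compound E than on OP9-DL1, with summed linear levels of 4485 to 4701 with Compound E, 15745 to 15871 on OP9-DL1 and 5911 to 6070 on OP9-GFP. Stromal feeder markers were higher in 10 of 14 cases on OP9-DL1 and lower in 11 of 14 with Compound E, with sums of 12976 to 13206, 19754 to 20105 and 13153 to 13486 in the same order of groups. Mast cell markers had 4 of 6 higher on OP9-DL1 and 4 lower with Compound E, with sums of 246 to 268, 1583 to 1616 and 778 to 783.

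Early T cell markers had 7 of 8 higher on OP9-DL1 and 7 lower with Compound E, with sums of 89 to 98 with Compound E, 344 to 426 on OP9-DL1 and 103 to 118 on OP9-GFP. Cd3e, which defines T cells, is counted among the 7 but was at background in every group, and Cd3d was the marker not called. Of the 8 markers 4 were above background with Compound E, 6 on OP9-DL1 and 2 on OP9-GFP. The brightest, Cd7, averaged 4.20, 7.85 and 5.39 in the same order. Macrophage markers ran the other way, with 9 of 9 lower on OP9-DL1 and 9 higher with Compound E, and sums of 21584 to 22004, 5520 to 5874 and 17784 to 18091 in the same order. Ikzf2 and the macrophage list thus had opposite orders of groups. The part of these cell types and of the feeder in the changes of Ikzf2, Runx1 and Runx3 was not tested.

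The other marker lists were small or mixed. Of 5 LSK and blood cell markers 2 rose and 2 fell on OP9-DL1, and Kit averaged 8.14 with Compound E, 10.22 on OP9-DL1 and 8.94 on OP9-GFP. Of 4 osteoblast markers 2 rose, with sums of at most 139 and Sp7 at background. Of 6 plasmacytoid dendritic cell markers 3 fell, of 4 B cell markers 1 rose and 1 fell, and of 5 NK cell markers 1 fell. Over all genes 15.1% were higher and 16.0% lower on OP9-DL1 against OP9-GFP, and a count of 1 in lists this small is close to those shares. Cd79a and Pax5, which define B cells, and Ncr1 and Eomes of the NK list were at background.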

How the data were processed

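The values are log2 expression as the authors deposited it, made from 25 ng of amplified, biotin-labelled RNA per the labels' protocols. MAS5 and GCRMA 2.4.1 are named per the submitters' processing notes, with no role or order, and no detection calls were used here. Gene symbols come from the platform's annotation and were updated by Entrez ID. Limma 3.58.1 in R 4.3.3 (lmFit, eBayes with an intensity trend) was fitted to the deposited log2 values of all 45037 probe sets that are no array controls, over all 9 arrays, with no covariate or filter, with Benjamini-Hochberg adjustment across all of them. The procedure was tested on simulated data. A gene outside the members is given by its brightest probe set, and up to 3 genes per list and direction with the largest called change are named. Promoter sequences are RefSeq's (GRCm38.p6). Members, lists and rules were chosen with earlier results of these data known. The 3 arrays per group limit the precision. Results outside the rule, the levels of Kit, Spn, Cd34, Cd7, Ptprc and Cxcl12, were chosen after their values were seen. Probe sets of bacterial transcripts were taken as background.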

Additional observations from a re-analysis of the deposited data

How the results depend on the processing

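Alternatives of scale, normalization, centring, filter, features tested, variance model, arrays fitted and replicate block, and each of the 9 arrays left out in turn, were run for every result. The 2 brighter Ikzf2 probe sets, Runx3 1440275_at and Runx1 1422864_at, 1422865_at and 1440878_at stayed called in the same direction in the first 2 comparisons under every alternative that included them, and Ikzf2 in the third too. Counted over 17 probe sets, those higher with Compound E than on OP9-DL1 were 0 as reported, 1 after quantile normalization and 5 after centring on array medians. Against OP9-GFP those higher were 0 as reported and 3 after centring. With 1 probe set per gene, of 6 genes 3 were higher on OP9-DL1, 4 lower with Compound E than on OP9-DL1 and 1 lower than on OP9-GFP. Over all genes 15.1% were higher on OP9-DL1 against OP9-GFP. With Compound E 21.0% of all genes were lower than on OP9-DL1, and 1826 of 18193 were lower than on OP9-GFP. A count of 1 in 6 genes is close to that last share. With probe sets averaged the counts were 3, 3 and 1, with 1 gene (Ikzf1) higher with Compound E in each of the last 2 comparisons. Both settings count 6 genes in place of 17 probe sets, and averaging also lost the Ikzf3 call (-0.11, adjusted p = 0.381). Otherwise the cause was not tested. Leaving out 1 array gave 6 to 7 higher and 0 lower on OP9-DL1. It gave 6 to 8 lower and 0 to 1 higher with Compound E against OP9-DL1, and 2 to 3 lower and 0 to 1 higher against OP9-GFP. Deviations of same-numbered arrays from their group means correlated at -0.09 to 0.10, and those of differently numbered arrays at -0.12 to 0.09. No pairing by number was seen, and the labels do not say what the number marks. With the replicate number as a block the fits gave 6 higher, 8 lower and 2 lower in the 3 comparisons and changed no call of a member. Values near background have no reliable order, which limits Ikzf3 and the dimmest probe sets of Ikzf1, Ikzf2 and Runx3.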
